A study of Rattus norvegicus with 5 samples.

Results

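Ribosomal protein genes of 2 kinds were examined, those for the ribosome of the cytosol and those for the separate ribosome inside mitochondria. Members were taken by symbol from the annotation of a rat array: Rpl or Rps followed by a digit (Rps6k kinases left out), Rplp0 to Rplp2 and Rpsa for the cytosolic kind, and Mrpl or Mrps for the mitochondrial kind. This gave 142 of the 14871 named genes with a probe, 72 cytosolic and 70 mitochondrial. The symbol rule also brought in Rps19bp1, which encodes a protein that binds RPS19, and the annotated pseudogene Rpl17-ps16. Of the 142 members, 141 had values on at least 4 arrays and were tested, and Mrpl10 was not.

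The RNA came from mononuclear leukocytes that were flushed from the vessels of transplanted rat kidneys by perfusion. A Percoll gradient had been used to remove granulocytes and erythrocytes. In the allograft group, kidneys of F344 donors were given to LEW recipients, a pairing with a minor MHC class I difference. In the isograft group, donor and recipient were both LEW. All animals were males, the recipients had lost both of their own kidneys, donors had received heparin and recipients ampicillin, and no immunosuppressive drug was given. The labels used here give neither the age of the animals, the day of collection nor the number of animals behind a sample. They call the 5 arrays biological replicates, so p-values measure the spread between these 5 arrays. Each array set 1 allograft sample against 1 isograft sample, with the allograft in Cy5 on replicates 1, 3 and 5 and in Cy3 on replicates 2 and 4.

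Values are log2 ratios of allograft over isograft, so a value above 0 means more transcript in allograft leukocytes. No source states this direction in so many words; the sample titles and the design text name the allograft before the isograft, which makes it likely. Fold sizes hold if the deposited logs are to base 2. Because only ratios were used, the level of a gene is unknown, members cannot be ranked by abundance, and the labelled cell type could be compared with its markers only as ratios. In such bulk samples, fewer cells of a type and less RNA per cell cannot be told apart. Gene names rest on a spot order that was recovered from the data: probes of a shared accession number correlated at 0.499 over 5797 pairs in that order, against 0.0239 for the second best of 17 orders. On single arrays this correlation was lower or higher, at 0.322, 0.306, 0.605, 0.175 and 0.222 for replicates 1 to 5, so the values of replicate 4, which set several of the extremes below, had the weakest such check.

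The cytosolic ribosome translates nuclear-encoded mRNAs. Its protein genes are among the most highly expressed of a cell, and many of their mRNAs start with a C followed by a run of pyrimidines, the 5′ terminal oligopyrimidine (TOP) motif, through which the mTORC1 kinase and the protein LARP1 control their translation without a need for a change in mRNA level. The mitochondrial ribosome makes the few proteins that the mitochondrial genome encodes, all of them parts of the respiratory chain and ATP synthase. Its proteins are encoded in the nucleus, made in the cytosol and imported. Activated lymphocytes are known to enlarge both their cytosolic translation machinery and their mitochondria.

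The start sites of the members are shown to make this difference between the classes visible. RefSeq promoter windows of the GRCr8 assembly, from 250 bases before to 50 bases after the annotated start, were matched by symbol for 116 of the 142 members. The sequences below run 5′ to 3′ from 10 bases before the start, and capitals mark the run of pyrimidines that a C at the annotated start opens. The first 5 are cytosolic members with such a run, the next 2 are the lowest cytosolic members, and the last 3 are among the highest mitochondrial members.
Rps27 (chr2:177964587-177964616, minus strand): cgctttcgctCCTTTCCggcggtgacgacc
Rps7 (chr6:50999426-50999455, minus strand): agagctgtgtCTCTTTCTaagccggcactc
Rpl35 (chr3:43165902-43165931, minus strand): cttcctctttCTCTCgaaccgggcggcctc
Rpl31 (chr9:49143101-49143130, plus strand): atccctcgcgCCTTTCCTTTCCaacttggg
Rpl10 (chrX:157205840-157205869, plus strand): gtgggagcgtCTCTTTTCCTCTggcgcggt
Rpl36a (chrX:102059439-102059468, plus strand): tataaacttcCgttgctgctctagcctctc
Rpl23 (chr10:83272165-83272194, minus strand): cttcctttctgactctttccggacgctcaa
Mrpl54 (chr7:9103515-9103544, plus strand): gagcgctgccgtaacacggaagcatgcacg
Mrpl12 (chr10:106256736-106256765, plus strand): agacaaaggcatgccgcggagggctgcagg
Mrps18a (chr9:22367361-22367390, minus strand): gtgtgttcccaagatggcggccctcagggc
A C at the start followed by pyrimidines to a run of at least 5 was present in 22 of 59 cytosolic windows (37.3%), in 2 of 56 mitochondrial windows (3.57%) and in 881 of all 33469 windows in the table (2.63%). When the C-led run could begin within 5 bases of the annotated start, the shares were 59.3%, 26.8% and 17.0%. The counts leave out Rps19bp1 among the cytosolic members. The annotated start decides where the run is sought, so a window without one says only that these letters were not at that position.

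Cytosolic members sat slightly below 0 and mitochondrial members above it, and no single member passed the test. The median log2 ratio of the 72 cytosolic members was -0.10, a 0.93-fold ratio, with quartiles of -0.19 and 0.01. The median of the 69 tested mitochondrial members was 0.22, a 1.16-fold ratio, with quartiles of 0.05 and 0.35. Over all 14329 named genes tested the median was -0.01, with quartiles of -0.18 and 0.16.

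Of the cytosolic members 53 were below 0 and 19 above. Of the mitochondrial members 56 were above 0 and 13 below, against a background of 49.1% of named genes above 0. In the upper quartile of all named genes lay 38 mitochondrial members (55.1%) and 3 cytosolic members (4.17%). In the lower quartile lay 19 cytosolic members (26.4%), a share near that of named genes at large. The cytosolic list thus held few high values and an ordinary share of low ones.

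In limma's moderated test with Benjamini-Hochberg adjustment over all 33646 rows, 0 cytosolic and 0 mitochondrial members had an adjusted p under 0.05, where percent called over all rows was 1.35% (0.761% higher, 0.591% lower) and among named genes 1.78%. At an unadjusted p under 0.05, 0 cytosolic members were higher and 5 lower. Among mitochondrial members, 21 were higher and 1 lower at that level, where 7.63% of named genes were higher and 7.54% lower. The smallest adjusted p was 0.0514 for a cytosolic member (Rpl36a) and 0.111 for a mitochondrial one (Mrps18a). Single-gene differences of this size were thus within what the test could not separate from the spread between arrays, with a median SE of 0.13 for cytosolic and 0.14 for mitochondrial members.

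**Figure D1:**
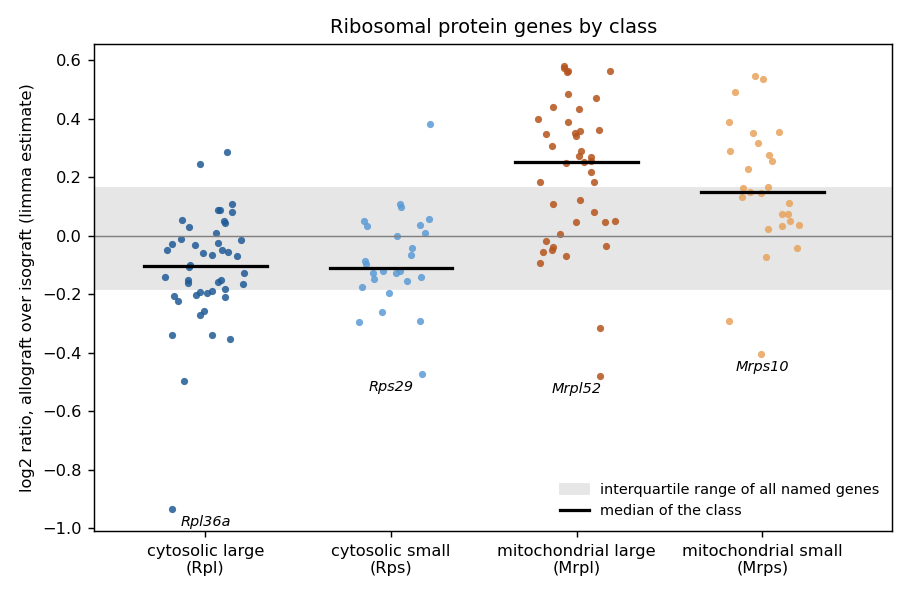
Log2 ratio (allograft over isograft, limma estimate, vertical axis) of each tested member, 1 point a gene, in the 4 classes of ribosomal protein genes, with the class median as a black line and the interquartile range of all named genes in grey. The class medians were -0.10, -0.11, 0.25 and 0.15 from left to right, and the lowest member of each class is named.

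By subunit, both cytosolic classes had medians below 0 and both mitochondrial classes medians above it. The cytosolic large subunit (46 Rpl genes) had a median of -0.10 and the small subunit (26 Rps genes) one of -0.11. The mitochondrial large subunit (42 Mrpl genes) had a median of 0.25 and the small subunit (27 Mrps genes) one of 0.15. Mitochondrial proteins whose names carry a bacterial number (37 genes) had a median of 0.18, and those numbered after the bacterial set (32 genes) had one of 0.23. The split went by the number in the symbol alone and not by homology. That last grouping was chosen after the values were seen.

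The separation was present on each of the 5 arrays. On replicates 1 to 5 the cytosolic median was -0.23, -0.07, -0.06, -0.04 and -0.17, below 0 throughout. The mitochondrial median was 0.17, 0.16, 0.22, 0.25 and 0.31, above 0 throughout. The mitochondrial median exceeded the cytosolic one by 0.40, 0.22, 0.28, 0.28 and 0.47 (SD 0.10, n = 5), and by 0.32 in the fit, a 1.25-fold distance. No array reversed the order of the lists, and the distance was widest on replicates 1 and 5. Members below 0 numbered 60 of 72 cytosolic genes on replicate 1 and 39 of 71 on replicate 3, the extremes among the arrays. Members above 0 numbered 47 of 68 mitochondrial genes on replicate 1 and 58 of 69 on replicate 3, again the extremes. The genes of a list share each array, so these counts are not independent observations.

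Both dye orientations gave the same signs. With the allograft in Cy5 the mean of the array medians was -0.15 for cytosolic and 0.23 for mitochondrial members, and with it in Cy3 the means were -0.05 and 0.20. The deposited columns were read as already turned to allograft over isograft. If replicates 2 and 4 had not been turned, the mitochondrial median would be 0.04 and the distance between the lists 0.08.

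**Figure D2:**
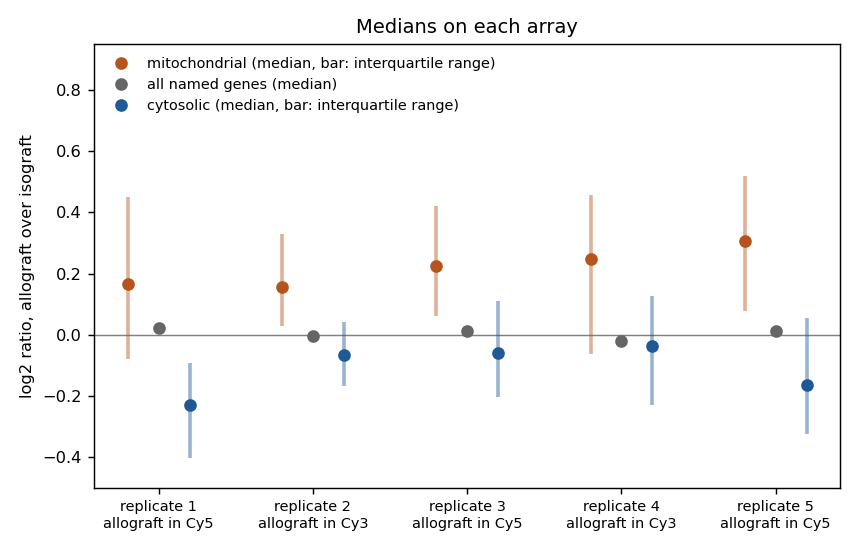
Median log2 ratio (vertical axis) of mitochondrial members, cytosolic members and all named genes on each of the 5 arrays (horizontal axis, with the dye of the allograft sample), and bars for the interquartile range of each member list. The mitochondrial median lies between 0.16 and 0.31 and the cytosolic median between -0.23 and -0.04.

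Members with the same sign on all 5 arrays were unequally divided. Among the 67 mitochondrial members with 5 values, 28 were above 0 on every array and 1, Mrpl52, was below, where 11.0% of named genes were above and 9.81% below on every array. Among 71 cytosolic members with 5 values, 0 were above 0 on every array and 17 were below.

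The size of the cytosolic displacement was set against a gene family unrelated to the ribosome, chosen with its values known. The 1042 olfactory and vomeronasal receptor genes tested had a median of -0.11, with 67.9% of them below 0. The cytosolic median of -0.10 was thus no farther from 0 than that of these receptors. By array the receptor medians were -0.07, -0.15, -0.03, -0.18 and -0.19, lower than the cytosolic median on replicates 2, 4 and 5 and higher on replicates 1 and 3. What the receptors and the cytosolic members share on these arrays was not tested.

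In the cytosolic large subunit, Rpl36a had the lowest ratio of all members. On replicates 1 to 5 Rpl36a stood at -1.40, -0.71, -0.66, -0.73 and -1.40. All 5 values were below 0, and replicates 1 and 5 lay well below the other three. The fit gave -0.94 ± 0.16 (SE), a 0.52-fold ratio, with an adjusted p of 0.0514, just outside the threshold. Rpl36a was below 0.05 under 5 of 18 other settings, and its adjusted p ran from 0.0219 to 0.249 over them. It encodes a protein near the exit site for tRNA and was read by a single probe, named for an expressed sequence tag (EST). The paralogue set against it next was read by 2 probes named for a RefSeq transcript. Rpl36al1, its near-identical paralogue, was looked at after the values were seen and gave -0.08, 0.08, -0.05, 0.17 and -0.17. Rpl36a minus Rpl36al1 ran from -1.32 to -0.61 over the 5 arrays, below 0 on each, although probes for such similar transcripts can share hybridisation.

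Rpl23, a protein of the subunit interface that can also bind the p53 regulator Mdm2, was the next lowest of the large subunit. On replicates 1 to 5 Rpl23 gave -0.71, -0.38, -0.12, -0.77 and -0.44, all below 0 with a wide spread. Its fit was -0.50 ± 0.15 with an adjusted p of 0.203. Rplp2 is an acidic protein of the stalk that recruits elongation factors. Its array values were -0.28, -0.22, -0.41, -0.53 and -0.30, close to each other and all below 0. The fit of Rplp2 was -0.35 ± 0.13 (adjusted p = 0.307). The other stalk proteins did not share this position: Rplp1 stood at -0.01 and Rplp0, often used as a reference gene, at 0.05. Rplp0 gave -0.08, 0.06, 0.02, 0.04 and 0.20 on the 5 arrays, a narrow band around 0.

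At the upper end of the large subunit stood Rpl7l1, a paralogue of Rpl7, at 0.28 ± 0.14 (adjusted p = 0.454). Its values were 0.35, 0.31, 0.40, -0.08 and 0.61, with replicate 4 alone below 0. Rpl7 itself stood at -0.11. Rpl39l1, a paralogue of Rpl39, had a fit of 0.24 ± 0.22 that rested on 1 array: its values were -0.15, 0.05, 0.34, 1.19 and -0.58, and without replicate 4 the estimate was -0.04. Rpl3, which lies near the peptidyl transferase centre, stood at -0.16 ± 0.15, and its muscle-enriched paralogue Rpl3l at -0.21 ± 0.17. Rpl27, the highest of the large subunit after these paralogues with 5 values, stood at 0.11 ± 0.14, below 0 on replicates 1 and 5 and above 0 on the others. The 3 highest cytosolic symbols were thus these 2 paralogues and Rps19bp1, described below. The 65 members left without paralogues, pseudogene and Rps19bp1 had a median of -0.12 (a list trimmed after the values were seen).

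Rpl5 and Rpl11 form, with 5S ribosomal RNA, the particle that binds Mdm2 when ribosome assembly is disturbed. Rpl5 stood at -0.21 ± 0.15 and Rpl11 at -0.06 ± 0.14. Neither kept its sign over the arrays, with Rpl5 at -0.38, -0.23, 0.26, -0.57 and 0.08 and Rpl11 at -0.51, 0.10, 0.00, 0.15 and -0.21. Rpl13a, which in human myeloid cells leaves the ribosome after interferon gamma to silence inflammatory mRNAs, stood at -0.06 ± 0.14. Its values were -0.61, 0.34, -0.26, 0.15 and -0.23, below 0 on the 3 arrays with the allograft in Cy5 and above 0 on the 2 with it in Cy3.

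In the cytosolic small subunit Rps29 was the lowest. It encodes a zinc-binding protein of the subunit's head. Its values on replicates 1 to 5 were -0.69, -0.11, -0.72, -0.49 and -0.53, all below 0 and weakest on replicate 2. The fit was -0.47 ± 0.14, with an adjusted p of 0.178. Rps25, which some viral and cellular mRNAs need for initiation at internal entry sites, gave -0.74, -0.01, -0.52, -0.13 and -0.31, again all below 0. Its fit was -0.30 ± 0.14 (adjusted p = 0.426). Rps7, one of the genes with a pyrimidine start shown above, takes part in early processing of the small subunit. Its values of -0.38, -0.29, -0.37, -0.28 and -0.13 were the most even of these 3, and its fit was -0.29 ± 0.13 (adjusted p = 0.408).

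The upper end of the small subunit was close to 0. Rps21 stood at 0.11 ± 0.13, Rps10 at 0.10 ± 0.13 and Rps3, which lines the mRNA entry channel and also binds NF-kappaB, at 0.06 ± 0.14. None of these 3 kept its sign over the arrays. Rps6, the substrate of S6 kinase, stood at 0.05 ± 0.14, and Rpsa, also known as the laminin receptor, at 0.01 ± 0.13. Rps19, the gene most often mutated in Diamond-Blackfan anaemia in humans, stood at -0.13 ± 0.14 and was below 0 on 4 of 5 arrays. The single small-subunit symbol above these was Rps19bp1 at 0.38 ± 0.16, with values on 4 arrays, which is no structural protein of the ribosome.

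The highest ratios of all members were those of the mitochondrial large subunit. Mrpl27, the counterpart of a bacterial protein that reaches towards the peptidyl transferase centre, gave 0.40, 0.37, 0.78, 0.73 and 0.66 on replicates 1 to 5. Mrpl54 gave 0.48, 0.36, 0.74, 0.54 and 0.88. Mrpl45, whose human counterpart sits at the exit of the peptide tunnel by the inner membrane, gave 0.12, 0.31, 0.69, 0.84 and 0.84. All 15 values of these 3 genes were above 0. Their fits were 0.58 ± 0.14 for Mrpl27, 0.57 ± 0.14 for Mrpl54 and 0.56 ± 0.17 for Mrpl45, with adjusted p-values of 0.119, 0.113 and 0.196.

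Mrpl12, the stalk protein that can also bind the mitochondrial RNA polymerase, gave 0.36, 0.32, 0.77, 0.64 and 0.79. It was above 0 on every array, with a fit of 0.56 ± 0.14 and an adjusted p of 0.136. This value rests on 1 of its 2 probes: the other, read on 3 arrays only, gave -0.15, -0.72 and -0.79 on replicates 2, 4 and 5, and where the filter let it in the estimate dropped to between 0.10 and 0.21. Mrpl17 had the most even values, 0.41, 0.47, 0.41, 0.42 and 0.45, and was chosen for this after its values were seen (fit 0.43 ± 0.13, adjusted p = 0.183). These are averages of 2 probes that were less even singly. On replicates 1 to 5, 1 probe gave 0.36, 0.20, 0.28, 0.47 and 0.23 (fit 0.31). The other gave 0.45, 0.73, 0.54, 0.37 and 0.68 (fit 0.55). Mrpl41, which in human cells has also been described as a partner of BCL2, stood at 0.29 ± 0.15 and was above 0 on 4 of 5 arrays.

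The lowest mitochondrial member, Mrpl52, departed from its class. Its values on replicates 1 to 5 were -0.82, -0.43, -0.37, -0.26 and -0.66, all below 0, and its fit was -0.48 ± 0.14 with an adjusted p of 0.180. No other mitochondrial member with 5 values was below 0 on every array. The next lowest of the large subunit with 5 values, Mrpl34 and Mrpl1, which have bacterial counterparts, stood at -0.09 ± 0.13 and -0.07 ± 0.14 and each was below 0 on 3 of 5 arrays. Mrpl38, with values on 4 arrays, stood between at -0.32 ± 0.19.

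In the mitochondrial small subunit the 3 highest members were above 0 on all 5 arrays. Mrps18a, which is found in the large subunit in mammalian structures in spite of its name, gave 0.45, 0.46, 0.63, 0.55 and 0.68, a narrow band, with a fit of 0.55 ± 0.13 (adjusted p = 0.111). Its paralogues, looked at after the values were seen, stood lower, Mrps18b at 0.14 ± 0.13 and Mrps18c at 0.02 ± 0.19. Each averaged 2 unlike probes, at 0.01 and 0.28 for Mrps18b and at -0.24 and 0.28 for Mrps18c. Mrps12, the counterpart of a bacterial protein of the decoding site, gave 0.38, 0.47, 0.44, 0.74 and 0.60. Its fit was 0.54 ± 0.13 (adjusted p = 0.123). Mrps14 gave 0.80, 0.30, 0.47, 0.35 and 0.70, with a fit of 0.49 ± 0.13 (adjusted p = 0.153). Mrps15, the counterpart of bacterial S15, stood at 0.17 ± 0.15 and was above 0 on 4 of 5 arrays.

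The low end of this class was set by replicate 4. Mrps10 gave 0.42, 0.14, 0.16, -1.64 and -0.77, and Mrps7, which binds mitochondrial ribosomal RNA, gave 0.70, -0.18, 0.06, -1.37 and -0.17. Their fits were -0.40 ± 0.29 and -0.29 ± 0.22. Without replicate 4 they were 0.04 and 0.01. Mrps34 stood at -0.07 ± 0.14 and likewise was 0.02 without replicate 4. It averaged 2 unlike probes, and only 1 was low on that array. That probe had a fit of -0.29 and stood at -1.09 on replicate 4, the other a fit of 0.15 and 0.42.

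**Figure D3:**
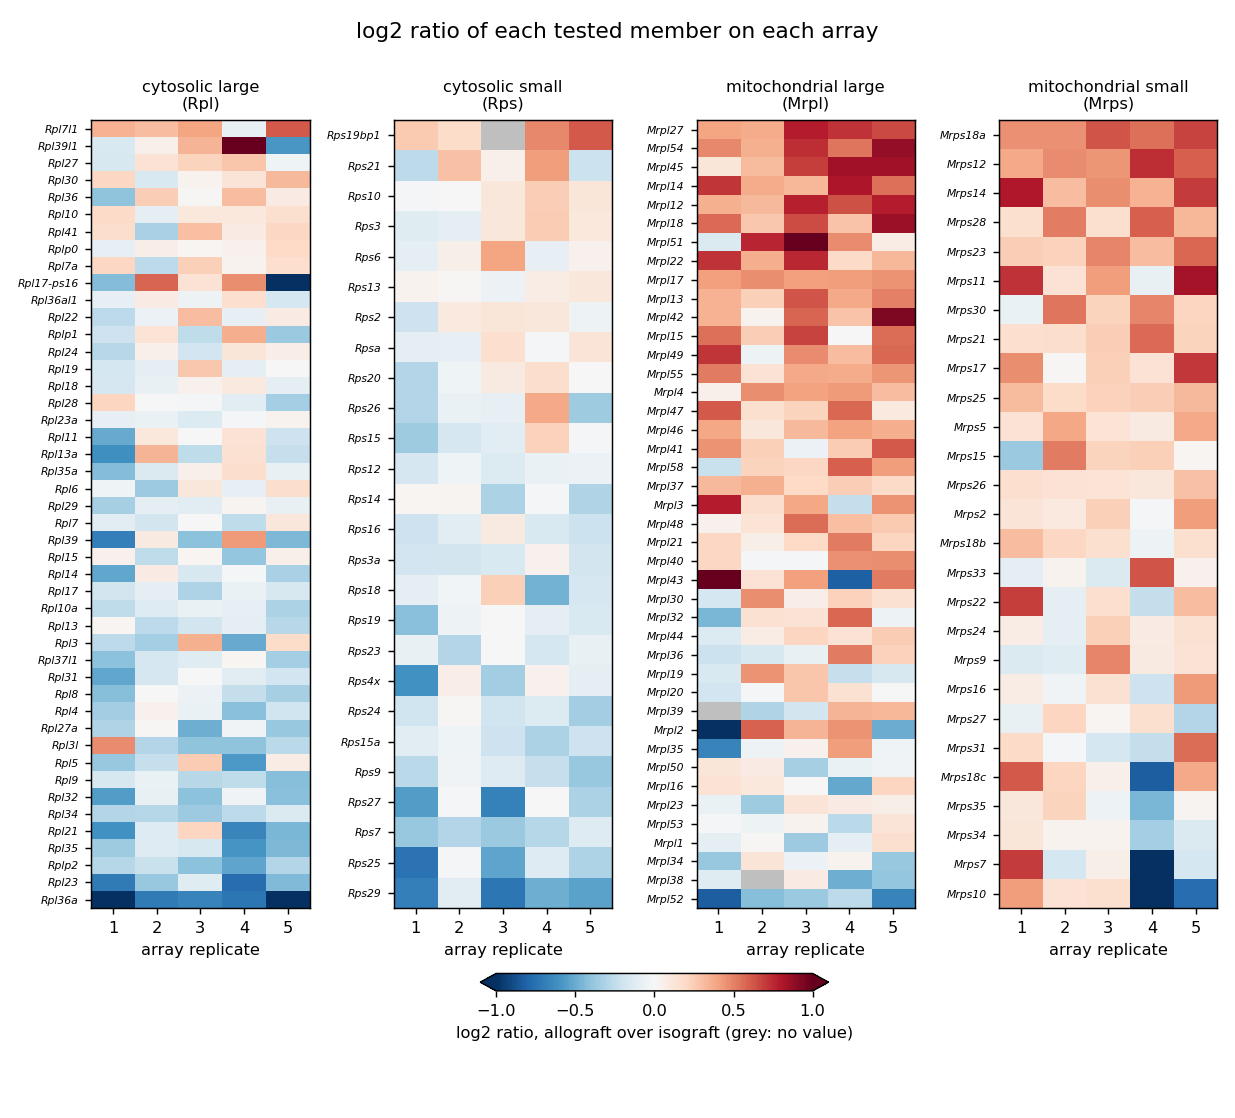
Log2 ratio (colour, red above 0 and blue below, scale held at -1.0 to 1.0) of each tested member (rows, ordered by the fitted ratio) on each array (columns, replicates 1 to 5) in the 4 classes. The mitochondrial panels are mostly red, the low cells of Mrps10 and Mrps7 stand on replicate 4, and Rpl36a and Mrpl52 are blue on all 5 arrays.

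Probes of a gene did not always give the same value, which limits statements on single members. In the 38 cytosolic members with several probes the range between probes had a median of 0.140. It reached 0.507 for Rps3, with 1 probe at -0.20 and 1 at 0.31. In 13 of the 38 members the probes had opposite signs. In the 29 such mitochondrial members the median range was 0.293, the widest was 1.06 for Mrpl21, and in 15 the probes had opposite signs. Mrpl21 had its RefSeq transcript probe at 0.78 and its EST probe at -0.28. In most of these 15 members a RefSeq probe was likewise above 0 and an EST probe below. Mrpl1 and Mrpl35 went the other way, and the probes of Mrps27 were both RefSeq ones. The part of this in the medians by number of probes, given next, was not tested. Mitochondrial members read by a single probe had a median of 0.27 (40 genes) and those read by several one of 0.11 (29 genes). For cytosolic members the values were -0.12 (34 genes) and -0.08 (38 genes). Ribosomal protein genes have many processed pseudogenes of close sequence, so the value of a single cytosolic member is uncertain in any case.

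Other motifs known from promoters of genes for mitochondrial proteins were sought in the same windows on both strands. The palindrome bound by NRF1, a regulator of nuclear genes for mitochondrial proteins, was in 4 of 56 mitochondrial windows (7.14%), in 0 of 59 cytosolic ones and in 0.852% of all windows. One example, from Mrpl17, is shown with 20 bases on either side, and the capitals mark the 10 letters of the palindrome that was searched.
Mrpl17 (chr1:169575725-169575774, minus strand): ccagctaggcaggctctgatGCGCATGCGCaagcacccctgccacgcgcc
The ETS core CCGGAAG, to which GABP binds, was in 33.9% of mitochondrial, 32.2% of cytosolic and 8.75% of all windows. The YY1 core, searched as the 10 letters that begin at the annotated start in the Mrps18a window printed above, was in 12.5%, 5.08% and 0.980%. None of the motifs contains another, and a window could count for several. Cytosolic members with a pyrimidine start had a median of -0.12 (22 genes) and those without one of -0.09 (37 genes). The 4 mitochondrial members with the NRF1 palindrome, Mrpl17, Mrpl32, Mrpl44 and Mrps18b, had a median of 0.13, and the 51 without it one of 0.25. Mitochondrial members with the ETS core had a median of 0.14 (19 genes) and those without it one of 0.28 (36 genes). For the YY1 core these medians were 0.27 (7 genes) and 0.24 (48 genes). Cytosolic medians were -0.10 with and without the ETS core. They were -0.06 with the YY1 core (3 genes) and -0.12 without it (56 genes). A motif match is a description of sequence and not evidence of binding.

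Lists made mainly of genes that build and serve the 2 ribosomes did not divide by compartment in the way the ribosomal proteins did. Ribosome biogenesis factors, which make the cytosolic ribosome in the nucleolus, had a median of 0.21 with 32 of 37 tested members above 0. Their position was thus close to that of the mitochondrial proteins rather than that of the cytosolic proteins they assemble. None passed the test. Nhp2, of the snoRNP that directs pseudouridylation of ribosomal RNA, was the highest at 0.65 ± 0.15 (adjusted p = 0.109), with values of 0.84, 0.45, 1.12, -0.05 and 1.36. Wdr43, an early assembly factor of the small subunit, was the lowest at -0.85 ± 0.33 (adjusted p = 0.337), a value that rested on replicate 4 at -2.74. Without replicate 2, Wdr43 stood at -1.47 with an adjusted p of 0.0403.

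Cytosolic aminoacyl-tRNA synthetases, which load tRNAs with their amino acids, had a median of 0.22 with 16 of 18 above 0, and none passed. Gars1, for glycine, was the highest at 0.88 ± 0.19 (adjusted p = 0.0817), with values of 0.30, 0.64, 0.81, 1.35 and 1.17. Farsa, a subunit of the phenylalanine enzyme, was the lowest at -0.11 ± 0.17. The 13 tested synthetases of mitochondria had a median of 0.04 with 8 above 0 and none passing, from Wars2 at -0.38 ± 0.20 to Pars2 at 0.34 ± 0.14.

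Cytosolic translation factors, mainly of initiation and elongation with the release factors Etf1 and Gspt1, the small-subunit protein Rack1 and Tpt1, had a median of 0.08 with 23 of 38 above 0 and none passing. Eif2s1, the subunit of eIF2 that stress kinases phosphorylate, was the highest at 0.42 ± 0.18, and Eif4b, a cofactor of the helicase eIF4A, the lowest at -0.24 ± 0.14. The mTORC1 and S6 kinase list, in which Larp1 was not tested, holds inhibitors beside activators, so its median gives no direction for the pathway. The list also holds Myc and the kinases Rps6ka2 and Rps6ka3. It had a median of -0.01 with 7 of 14 above 0 and none passing. Its extremes were Mtor, the kinase itself, at 0.50 ± 0.18 and Tsc1, an inhibitor of the pathway, at -0.40 ± 0.24. The list of mitochondrial transcription, translation and ribosome assembly had a median of 0.09 with 24 of 31 above 0 and none passing. It also holds 4 structural proteins of the mitochondrial ribosome whose symbols lack the Mrp stem, Dap3 at -0.01, Chchd1 at 0.12, Aurkaip1 at 0.14 and Gadd45gip1 at 0.41. Slirp, which stabilises mitochondrial mRNAs, stood at 0.58 ± 0.20 and Eral1, a chaperone of mitochondrial ribosomal RNA, at -0.22 ± 0.26, which became 0.17 without replicate 4.

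**Figure D4:**
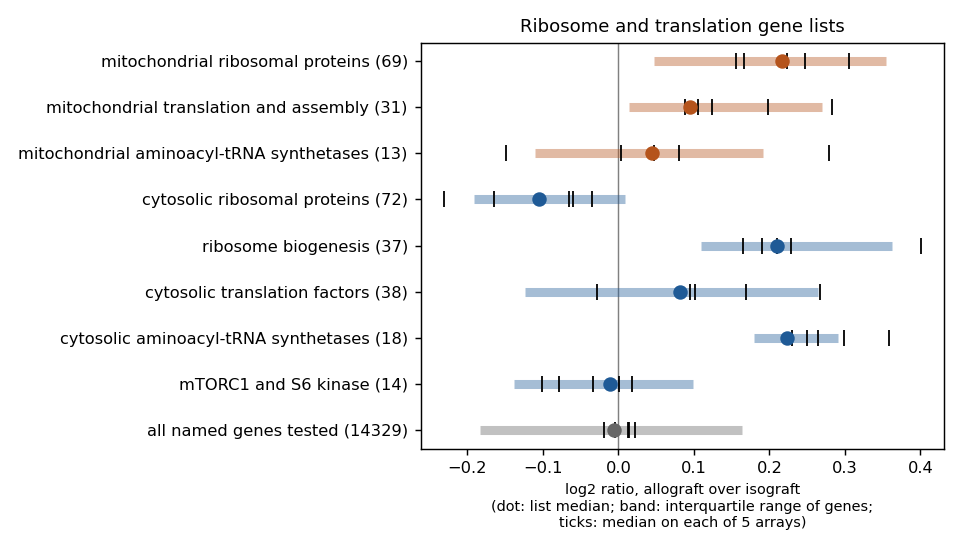
Median log2 ratio (dot, horizontal axis), interquartile range of the genes (band) and median on each of the 5 arrays (ticks) for the ribosome and translation lists, with the number of genes tested in brackets and all named genes at the bottom. The cytosolic ribosomal proteins are the list with all 5 array medians below 0, and the mitochondrial ribosomal proteins, ribosome biogenesis factors and cytosolic synthetases have all 5 at 0.16 or above.

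Marker genes of several cell types also had ratios away from 0. All 6 tested platelet markers were below 0 (median -2.60, 5 passing as lower, Pf4 at -3.12), as were all 6 tested red cell markers (median -1.63, 4 passing as lower, Hbb at -2.26) and all 4 tested B cell markers (median -0.85, none passing). Among T cell markers 4 of 6 were above 0 (median 0.42) and Cd3e passed at 1.10. Among monocyte and macrophage markers 5 of 6 were above 0 (median 0.27), and Cd14 and Aif1 passed. The 5 NK cell markers were divided (median -0.11): Klrk1 at 1.16 and Nkg7 at 0.84 passed as higher, while Ncr1 at -0.61 and Klrd1 at -0.56 were below 0 on all 5 arrays without passing, and Klrb1a stood at -0.11. The 7 granulocyte markers were divided, 3 above 0 and 4 below (median -0.14), with none passing. They ran from S100a9 at -0.93 to Camp at 0.66, and their array medians from -0.49 to 0.38. Of 6 proliferation markers 5 were above 0 (median 0.74), and Ccna2, a cyclin of S phase and mitosis, passed at 1.03. Endothelial and kidney tubule markers had medians of 0.06 and -0.17 with none passing. The part of these marker differences in the ratios of either kind of ribosomal protein gene was not tested.

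The medians of the 2 lists moved little with the processing. Over 19 other settings that kept the orientation of the arrays, the cytosolic median lay between -0.12 and -0.08, and over 18 such settings the mitochondrial median lay between 0.18 and 0.25. The distance between them lay between 0.29 and 0.37.

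**Figure D5:**
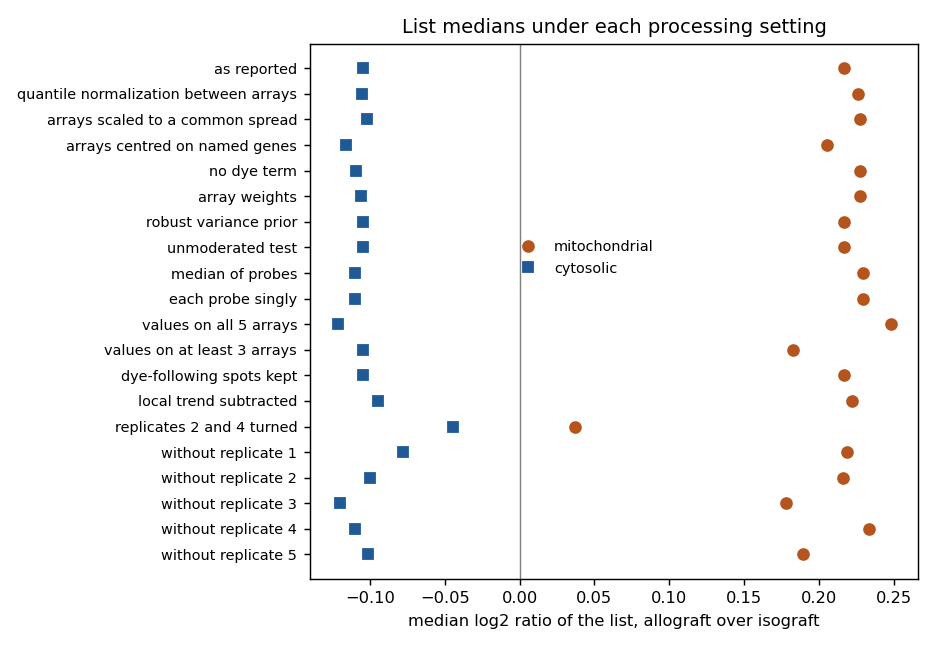
Median log2 ratio (horizontal axis) of the cytosolic members (squares) and the mitochondrial members (circles) as reported and under each other processing setting (rows). The lists stay on opposite sides of 0 in every row, and their medians draw nearest, to -0.04 and 0.04, where replicates 2 and 4 are turned in sign.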

How the data were processed

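Log ratios for the spots of 5 dual-colour arrays were deposited by the authors and are read here as log2 ratios of allograft over isograft. How spots were scanned, corrected and normalized, and the base of the logs, is not given in the sources used here. Values were present for 41033 to 43286 of 44290 spots, array medians ran from -0.01 to 0.03, and array SDs from 0.506 to 0.847. Precision is limited by the number of arrays; without spot intensities, which were not used here, signal over background cannot be given.

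Row numbers of the table were not in register with the platform's probe annotation. The table was taken as 103 rows by 430 columns, and 17 orders, among them the row numbers as given (correlation 0.0016), were compared by the correlation of probes that share an accession number. The annotation gave 1 gene for 23535 probes, several for 48 and none for 20707. Probes with several genes, among them probes for Rpl12, Rps29, Rpl37a, Rps9 and Rps7, were named for no gene. Spots whose mean log2 ratio of Cy5 over Cy3 was above 3 (407, none of them named) were left out, a step taken after the data were seen. Smaller ratios that changed sign with the dye, such as those of Rpl13a, were kept.

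Probes with values on at least 4 arrays were averaged per symbol (237 of 245 member probes, 8 having too few values) and then entered lmFit and eBayes (limma 3.58.1, R 4.3.3) under a model holding a graft and a dye effect. Two-sided p-values were adjusted by Benjamini-Hochberg over all 33646 rows, of which 455 passed 0.05 (256 higher, 199 lower). The fit was tested on simulated data, where added changes as small as the ratios of most members were not called, so the lack of passing members does not show that they did not differ. The members and gene lists were chosen with earlier results of these data known, so lists are described by counts and medians, with no test of a list. Named genes were members passing the test, the 3 highest and 3 lowest of each class with 5 values, paralogue pairs with both tested, 12 members with a known role outside the ribosome or in its assembly, and the highest and lowest of each pathway list. Motifs were sought in RefSeq promoter windows of GRCr8. Alternatives were quantile normalization, scaling, centring on named genes, no dye term, array weights, a robust prior and no moderation. Further ones were the median of probes, single probes, filters of 5 and 3 arrays and dye-following spots kept. A local trend was also subtracted, the median of a square of 21 by 21 spots around each spot. The rest were replicates 2 and 4 turned, each array left out, and a trimmed cytosolic list, the last one added after the data were seen.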

Additional observations from a re-analysis of the deposited data

Results flagged for a closer look

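In 3 of 58 sets of 5 array values examined, 1 array lay far from the other four by Dixon's test at its 95% critical value of 0.71. Chance flags about 1 in 20 such sets. The median of the ribosome biogenesis list was 0.40 on replicate 5, against 0.17 to 0.23 on the other arrays. Rpl3l, the muscle-enriched paralogue of Rpl3, was at 0.47 on replicate 1, against -0.41 to -0.27 on the others. Wdr43, an assembly factor of the small subunit, was at -2.74 on replicate 4, against -0.47 to -0.01 on the others. The reason for none of the 3 was tested.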

How the results depend on the processing

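The cytosolic and mitochondrial medians, and the distance between them, kept their signs under all settings, including the trimmed cytosolic list. With replicates 2 and 4 turned in sign the mitochondrial median was 0.0370 and the distance 0.0812. The count of cytosolic members passing was 1 in place of 0 with quantile normalization (Rpl36a at -0.98, adjusted p = 0.0219), scaled arrays (0.0391), no dye term (0.0426), values required on all 5 arrays (0.0477) and a subtracted local trend (0.0277). The count of mitochondrial members passing was 0 under every setting. With 1 array left out, the ribosome biogenesis count ranged from 0 to 1 (Wdr43, without replicate 2) and the mTORC1 median from -0.0840 (without replicate 5) to 0.0353. Values of 11 of the 49 named genes changed sign at some setting. Rpsa was -0.00232 with arrays centred on named genes. With 1 array left out, Rpsa ranged from -0.0158 to 0.0498, Rpl13a from -0.107 to 0.0016, Rpl11 from -0.117 to 0.0110, Farsa from -0.220 to 0.00441 and Rps6 from -0.0192 to 0.104. In the same way Rpl39l1 ranged from -0.0402 to 0.528, Rps3 from -0.0296 to 0.142, Mrps10 from -0.850 to 0.0414, Mrps7 from -0.590 to 0.00819, Mrps34 from -0.165 to 0.0193 and Eral1 from -0.607 to 0.171, each changing sign without replicate 4. None of these values passed the test, and the cause was not tested. Over all rows, 749 passed with quantile normalization, 0 without moderation (4501 at an unadjusted p under 0.05 in that limma fit) and 64 to 149 with 1 array left out, against 455. Each array already sets 1 allograft sample against 1 isograft sample, so a replicate gives a single ratio. The test of these ratios thus used the pairing of samples on an array, and no further pairing was entered.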
